A study of Caenorhabditis elegans with 6 samples.

Results

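The cuticlin and cuticlin-like genes of *C. elegans* were followed in larvae with activated Wnt signaling. The family was taken as every gene whose symbol in the platform annotation is cut- or cutl- followed by a number, measured by probe sets that name that gene alone. Where several probe sets named a gene, the one with the highest mean signal over the 6 arrays was used. By this rule 34 genes of the 17138 measured were members, 6 of them cut genes and 28 cutl genes. RefSeq lists 35 such genes, and the remaining one, cutl-23, had no probe set of its own.

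Cuticlins are the part of the worm's cuticle that stays insoluble after the collagens are dissolved with reducing agents. Most of these proteins carry a zona pellucida (ZP) domain, a module through which secreted proteins polymerize in apical extracellular matrices, and several build the alae, the ridges that run over the lateral seam cells in some larval stages and in the adult. The cuticle is made anew before each molt by the hypodermis and seam, tissues in which Wnt signaling acts during larval development.

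Expression was measured on Affymetrix arrays hybridized with RNA of whole L3 larvae, 1 array per sample. The hs::ΔNTbar-1 group (3 arrays) carried huIs7, in which the hsp16.2 heat shock promoter drives Myc-tagged BAR-1, a β-catenin, without its N-terminus, together with mec-7::GFP and dpy-20(+). The hs::control group (3 arrays) carried deIs14, made with the empty heat shock vector pPD49.78, mec-7::GFP and dpy-20(+) in dpy-20(e1282) animals. Both groups received a heat shock of 30 minutes, at 30 °C by the labels, and the methods name another temperature. By the methods the heat shock was given at the L2/L3 molt, and the worms were collected after 1 hour of recovery. Each group was a single strain and neither had a sample without heat shock, so the transgene and other differences between the strains cannot be told apart. The methods describe the samples as biological replicates.

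The labels were checked with bar-1, whose signal was 7754.9, 20991 and 16009 on the hs::ΔNTbar-1 arrays, against 586.3, 519.5 and 574.7 on the hs::control arrays (limma adjusted p = 0.00775). Signals are on a linear scale that the authors had set to a common level on each array. The median signal of an array lay between 134 and 145 in the hs::ΔNTbar-1 group and between 131 and 143 in the hs::control group. Log2 values of 2 arrays correlated at 0.979 to 0.981 within a group and at 0.973 to 0.976 between groups. The probes of different probe sets differ in affinity, so no level is compared between genes.

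The family did not move as a block. One member, cutl-11, was lower in hs::ΔNTbar-1 larvae past an adjusted p of 0.05, and no member was higher past it. That is 2.94% of the members, against 0.729% of all genes by the same rule (0.443% higher and 0.286% lower). Differences are given as log2(signal + 16) of the hs::ΔNTbar-1 mean minus the hs::control mean, tested with limma across all probe sets, with p-values adjusted by Benjamini-Hochberg over all of them. On this scale 20 members had positive and 14 negative differences, with a median of 0.04 and quartiles of -0.20 and 0.28, and the median over all genes was 0.00061 with quartiles of -0.18 and 0.18.

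Individual members differed more from 0 than that median shows. The median size of the difference, without its sign, was 0.27 for the members and 0.18 for all genes. At an unadjusted limma p of 0.05, 11 members (32.4%) passed, 6 higher and 5 lower, against 13.9% of all genes (7.25% higher and 6.69% lower). For the same 11 members the 3 hs::ΔNTbar-1 arrays did not overlap the 3 hs::control arrays, against 21.5% of all genes. With 3 arrays in each group the smallest p of an exact permutation test is 0.1, so no permutation test of single genes was made. The study's own criteria combine 3 conditions, which are group means at least 2-fold apart, an analysis of variance that gives p no larger than 0.05, and agreement of at least 2 arrays in direction. Applied here to the deposited signals, with direction read against the hs::control mean, these criteria can give other counts than the study's. With the fold taken on log2(signal + 16), they were met by 2 members, cutl-13 (higher) and cutl-11 (lower), or 5.88%. Of all genes 1.35% met them, 0.782% as higher and 0.572% as lower. With the fold taken as the ratio of the mean signals, cut-6 and cutl-27 met them too, which made 4 members (11.8%), against 2.4% of all genes.

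**Figure D1:**
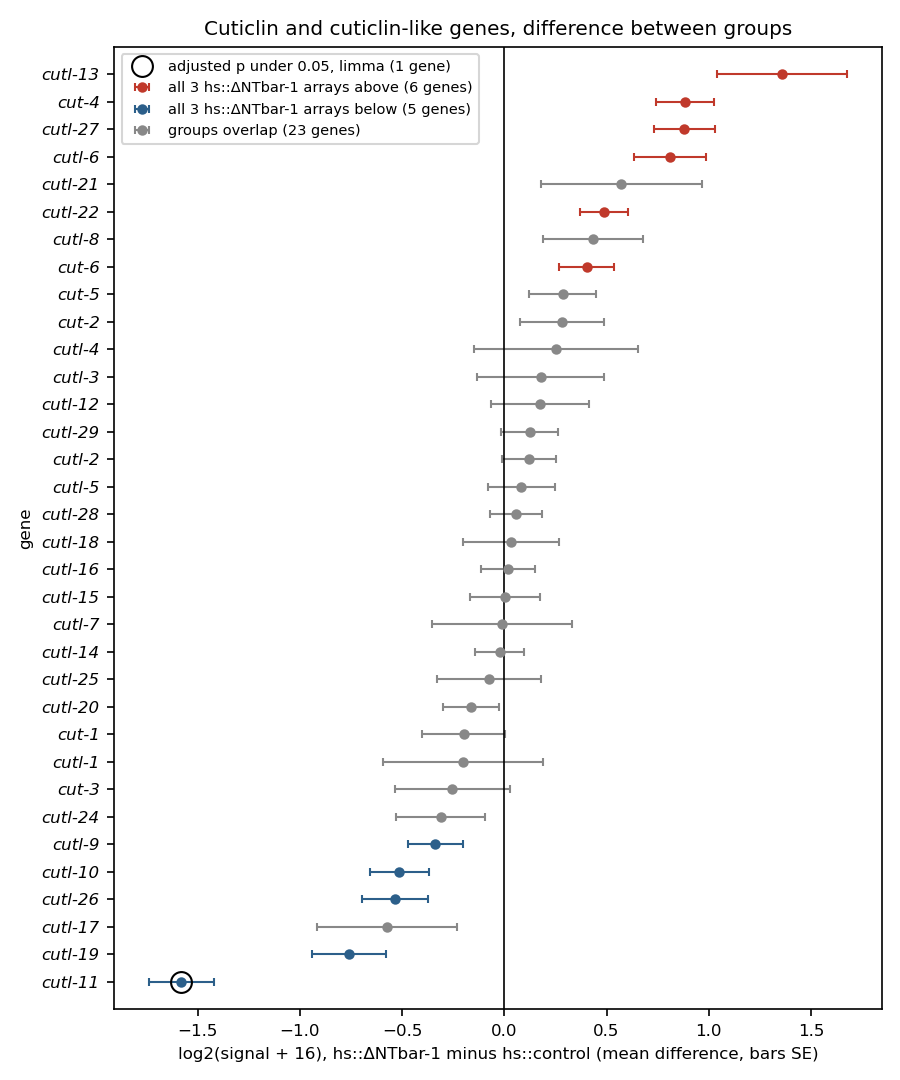
Difference of each of the 34 cuticlin and cuticlin-like genes (x axis, log2(signal + 16), hs::ΔNTbar-1 minus hs::control), with its standard error as a bar and 1 gene per row. Colors mark the 6 genes with all hs::ΔNTbar-1 arrays above and the 5 with all of them below the hs::control arrays, and cutl-11 at -1.58 is the lowest and cutl-13 at 1.36 the highest.

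The gene cutl-11, one of the cuticlin-like genes and located by RefSeq between the genes T04F8.8 and T04F8.2, had signals of 12.7, 9.1 and 7.6 in hs::ΔNTbar-1 larvae, against 52.6, 55.7 and 76.3 in hs::control larvae. All 3 hs::ΔNTbar-1 arrays were low, and the highest of them stayed well under the lowest hs::control array. The means were 9.80 ± 2.62 in hs::ΔNTbar-1 and 61.5 ± 12.9 in hs::control (SD, n = 3 arrays each), a signal 6.28-fold higher in hs::control. The difference was -1.58 ± 0.16 (SE) on the log2 scale, with a limma adjusted p of 0.0149. The pseudocount of 16 makes this figure smaller than the ratio, because the hs::ΔNTbar-1 signals are below 16. No detection calls were used here, so it is not known whether signals of this size lay above the background of the array.

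The call of cutl-11 rested on the 6 arrays together. Leaving out each array in turn gave limma adjusted p-values of 0.0536 to 0.086, and the direction was the same each time. The 4 neighbouring genes in RefSeq order, sto-4, T04F8.8, T04F8.2 and T04F8.3, had differences of -0.02, 0.02, -0.0018 and 0.41, none of them past an adjusted p of 0.05. Only for T04F8.3 did the groups not overlap. These neighbours were looked up after the value of cutl-11 was seen. Because RNA came from whole larvae, fewer cells that express a gene and less RNA per cell cannot be told apart.

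Among the 6 cut genes, none passed an adjusted p of 0.05, and the difference was positive for 4, with a median of 0.28. The largest was that of cut-4. Its signal was 490.9, 486.9 and 422.0 in hs::ΔNTbar-1 larvae, against 271.0, 208.0 and 261.3 in hs::control larvae, so every hs::ΔNTbar-1 array was well above every hs::control array. The ratio of the means was 1.89 and the difference 0.88 ± 0.14 (SE), with a limma adjusted p of 0.064. Leaving out 1 array raised this to between 0.134 and 0.211, while leaving out dim probe sets lowered it to 0.00989 and letting the variance follow the signal level lowered it to 0.0064. The next gene in RefSeq order, E04D5.4, averaged 127 in hs::ΔNTbar-1 and 37.5 in hs::control larvae with no overlap (difference 1.53, limma adjusted p = 0.189). The genes eif-2A, frpr-21 and ZK673.1 around them differed by 0.15, -0.17 and -0.42, the last with no overlap. These values, too, were looked up after that of cut-4 was seen.

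The gene cut-6, which is needed for the alae of the dauer larva and for body shape, gave signals of 7.3, 14.5 and 13.0 in hs::ΔNTbar-1 larvae, against 5.0, 4.4 and 4.8 in hs::control larvae. The arrays did not overlap, although all 6 values were near the bottom of the scale. The ratio of the means was 2.45, and the difference was 0.40 ± 0.14 (SE), with a limma adjusted p of 0.277. Because all 6 signals are below 16, the pseudocount makes this difference and its standard error small. With a pseudocount of 1 the difference was 1.09 (limma adjusted p = 0.215).

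The remaining cut genes overlapped between the groups. The alae gene cut-5, which acts in the L1 and dauer stages, had 105.7, 158.3 and 151.1 in hs::ΔNTbar-1 larvae, against 113.6, 107.4 and 106.6 in hs::control larvae (difference 0.28, limma adjusted p = 0.513). Here 2 hs::ΔNTbar-1 arrays stood above all hs::control arrays and the other was just below them. The dauer cuticlin gene cut-1 had 14.4, 28.8 and 18.7 in hs::ΔNTbar-1 larvae, against 21.2, 21.6 and 35.1 in hs::control larvae (difference -0.20, limma adjusted p = 0.730). The L1 alae gene cut-3 had 58.0, 29.0 and 31.2 in hs::ΔNTbar-1 larvae, against 64, 30.7 and 55.3 in hs::control larvae (difference -0.25, limma adjusted p = 0.754). In both genes the 3 values of a group spread more widely than the group means differed.

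The gene cut-2 encodes a cuticlin without a ZP domain whose protein can be cross-linked through dityrosine. It had signals of 14273, 15823 and 12952 in hs::ΔNTbar-1 larvae, against 13914, 8753 and 13329.6 in hs::control larvae. The groups overlapped, and hs::control array 2 was the low one. The difference was 0.28 ± 0.21 (SE), with a limma adjusted p of 0.615. The probe sets of cut-2 and cut-3 are of a kind whose probes may also match other transcripts, as are those of cutl-2, cutl-9, cutl-10 and cutl-26.

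Of the 28 cutl genes, 4 were higher in hs::ΔNTbar-1 larvae with no overlap between the groups, cutl-13, cutl-27, cutl-6 and cutl-22, and none of them passed an adjusted p of 0.05. By the same rule of no overlap, 11% of all genes were higher and 10.5% lower. The gene cutl-13 had signals of 49.5, 93.7 and 33.4 in hs::ΔNTbar-1 larvae, against 17.0, 5.8 and 13.3 in hs::control larvae. Every hs::ΔNTbar-1 array was above every hs::control array, with array 2 far above the other hs::ΔNTbar-1 arrays. The means were 58.9 ± 31.2 in hs::ΔNTbar-1 and 12 ± 5.71 in hs::control (SD, n = 3 arrays each), a ratio of 4.89. As with cutl-11, it is not known whether the hs::control signals lay above background, and with 16 added to each signal the fold was 2.56. The difference was the highest of the family, 1.36 ± 0.32 (SE), and its limma adjusted p was 0.157. Its standard error was among the larger ones of the members, which ran between 0.119 and 0.399 with a median of 0.173.

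For cutl-27 the study lists primers among those for quantitative PCR of its candidate Wnt target genes. The paper does not name it among the genes pursued after that PCR. The gene, C29E6.4, lies on chromosome IV beside let-653, which encodes another ZP-domain protein. The primers are shown because they are the designed sequences that target a member, each 5′ to 3′ with the last 5 bases at the 3′ end, from which the polymerase extends, in capitals.
cutl-27 forward: tgtccactgatggcatgtacTTCTC
cutl-27 reverse: aagttatctcgatgacctgcGTCTG

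On the arrays cutl-27 had signals of 98.2, 106.6 and 107.3 in hs::ΔNTbar-1 larvae, against 38.3, 59.2 and 52.0 in hs::control larvae. The hs::ΔNTbar-1 values lay close together and all above the hs::control values. The ratio of the means was 2.09, and the difference was 0.88 ± 0.15 (SE) with a limma adjusted p of 0.0718, or 0.119 to 0.208 when 1 array was left out. With a pseudocount of 64 in place of 16 the adjusted p was 0.04. Its neighbour let-653 differed by -0.14 (limma adjusted p = 0.815), with overlapping groups. Further along in RefSeq order, trpa-1 differed by -0.25 (limma adjusted p = 0.475) and nhr-43 by 0.50 (limma adjusted p = 0.291), each with no overlap. The gene pph-2, on the other side of cutl-27, had no probe set that names it alone.

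The signals of cutl-6 were 164.3, 167.7 and 110.1 in hs::ΔNTbar-1 larvae, against 77.9, 69.8 and 80.3 in hs::control larvae, and the difference was 0.81 ± 0.18 (SE, limma adjusted p = 0.136). The signals of cutl-22 were 110.6, 114.3 and 118.3 in hs::ΔNTbar-1 larvae, against 69.3, 88.0 and 74.5 in hs::control larvae, and the difference was 0.49 ± 0.12 (SE, limma adjusted p = 0.165). Both sets of arrays were apart, with the hs::ΔNTbar-1 arrays of cutl-6 the more scattered. When dim probe sets were left out before the fit, the limma adjusted p was 0.0312 for cutl-6 and 0.0478 for cutl-22.

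Lower in hs::ΔNTbar-1 larvae with no overlap, beside cutl-11, were cutl-19, cutl-26, cutl-10 and cutl-9. The signals of cutl-19 were 105.4, 83.2 and 130.9 in hs::ΔNTbar-1 larvae, against 175.0, 218.7 and 175.9 in hs::control larvae. The difference was -0.76 ± 0.18 (SE), with a limma adjusted p of 0.158, or 0.0413 without dim probe sets. All hs::ΔNTbar-1 arrays were below all hs::control arrays.

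The signals of cutl-26 were 508.9, 475.9 and 460.2 in hs::ΔNTbar-1 larvae, against 794.3, 563.3 and 783.1 in hs::control larvae (difference -0.54 ± 0.16 SE, limma adjusted p = 0.238). Those of cutl-10 were 346.0, 409.3 and 429.3 in hs::ΔNTbar-1 larvae, against 496.6, 581.0 and 635.3 in hs::control larvae (difference -0.51 ± 0.14 SE, limma adjusted p = 0.213). Those of cutl-9 were 85.8, 78.6 and 83.7 in hs::ΔNTbar-1 larvae, against 90.7, 115.2 and 122.6 in hs::control larvae (difference -0.34 ± 0.13 SE, limma adjusted p = 0.354). The hs::ΔNTbar-1 arrays of cutl-26 and cutl-9 lay close together, and in each case 1 hs::control array came near them.

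**Figure D2:**
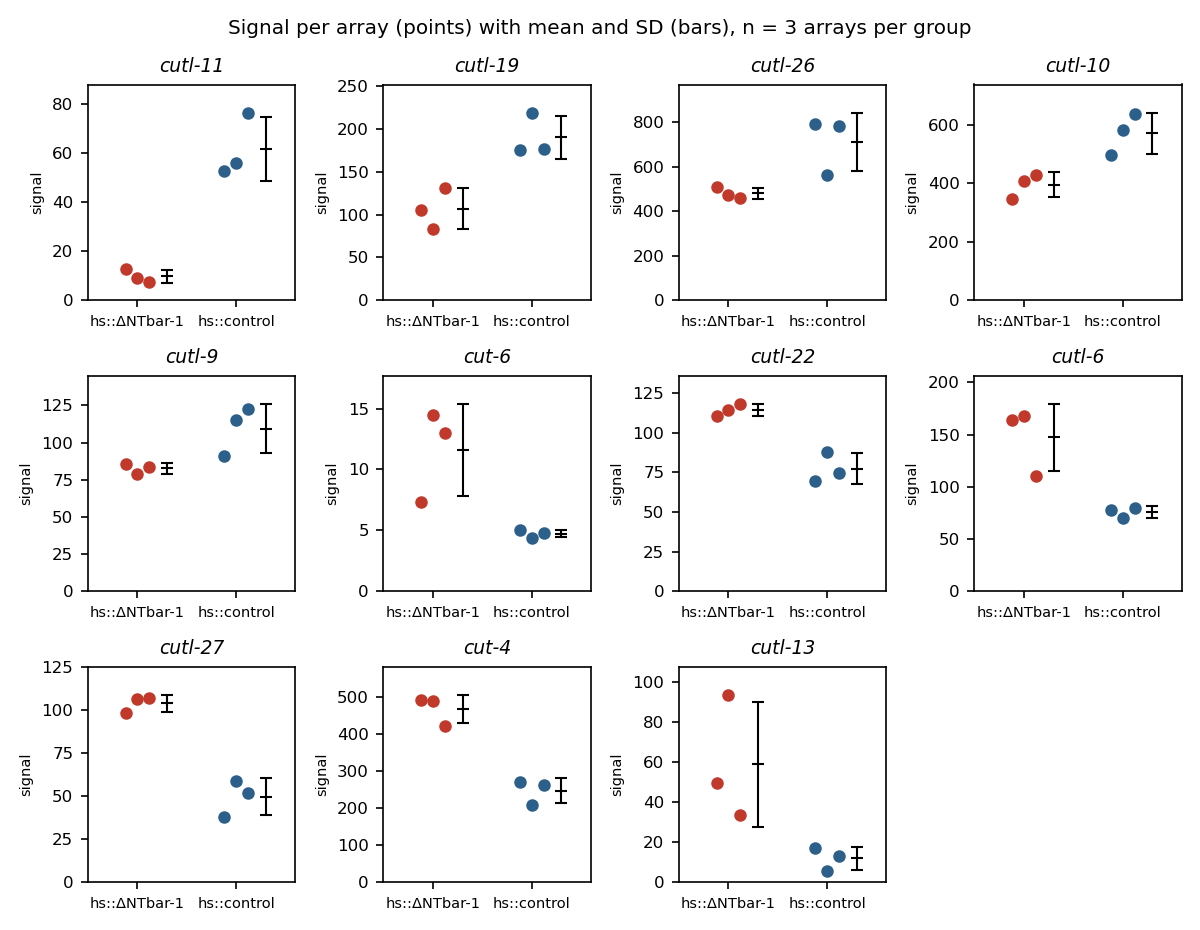
Signal (y axis, linear scale from 0) of the 11 members whose groups did not overlap, with 1 point per array and the mean ± SD of 3 arrays beside each group. In the upper row and for cutl-9 the hs::ΔNTbar-1 points are below all hs::control points, and in the other 6 panels they are above them.

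The other 19 cutl genes overlapped between the groups. Their differences ran between -0.57 for cutl-17 and 0.57 for cutl-21, and their limma adjusted p-values between 0.505 for cutl-8 and 0.997 for cutl-15. The signals of cutl-17 were 34.8, 13.8 and 54.6 in hs::ΔNTbar-1 larvae, against 39.1, 57.4 and 71.3 in hs::control larvae. Those of cutl-21 were 52.4, 87.6 and 68.3 in hs::ΔNTbar-1 larvae, against 29.7, 88.0 and 22.2 in hs::control larvae. In both genes the arrays of a group were scattered, and for cutl-21 a single hs::control array was as high as the highest hs::ΔNTbar-1 array.

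At the other end, cutl-14 had 180.3, 228.7 and 209.5 in hs::ΔNTbar-1 larvae, against 209.7, 206.4 and 210.4 in hs::control larvae. Its 95% interval ran between -0.32 and 0.27. That of cutl-16, with 138.4, 145.5 and 149.3 in hs::ΔNTbar-1 larvae and 127.8, 134.9 and 167.3 in hs::control larvae, ran between -0.30 and 0.33. For both genes a change of 2-fold, or 1 on the log2 scale, lay outside the interval.

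Intervals sort the members by what the arrays could show on the log2 scale with its pseudocount. For 23 members the 95% interval stayed within a 2-fold change either way, and 18 of these intervals held 0. For the other 11, cut-4, cutl-1, cutl-4, cutl-6, cutl-8, cutl-11, cutl-13, cutl-17, cutl-19, cutl-21 and cutl-27, it reached beyond 2-fold. The widest were those of cutl-4 (4.3, 27.9 and 22.7 in hs::ΔNTbar-1 larvae, against 6.2, 4.9 and 27.9 in hs::control larvae), cutl-1 and cutl-21. In cutl-4 each group held signals near the floor and signals several times higher. Where signals are near the floor, the pseudocount shrinks both the difference and its interval. An interval within 2-fold then does not exclude a 2-fold change of the signal itself. Among the 23, cut-6 had an interval of 0.08 to 0.73, while the ratio of its mean signals was 2.45. The interval of cutl-2, with mean signals of 4.47 in hs::ΔNTbar-1 and 2.77 in hs::control larvae, is limited in the same way.

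On all 6 arrays 19 members lay under the array's median signal and 10 above it, with 5 on either side. The median standard error was 0.24 for the 19, 0.16 for the 5 and 0.14 for the 10. Of the 11 members without overlap, 6 were among these 19, namely cut-6, cutl-9, cutl-11, cutl-13, cutl-22 and cutl-27.

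The hs::ΔNTbar-1 arrays did not place the family alike. On array 1, 15 of the 34 members were above their hs::control mean, on array 2, 19, and on array 3, 23. The median difference from the hs::control mean was -0.04, 0.07 and 0.18 on these arrays. Without each of the 6 arrays in turn, the median difference of the family lay between -0.01 and 0.16, so its sign depended on single arrays.

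For 4 members there was more than 1 probe set of their own, and these did not always give the same picture. For cutl-20, the probe set used had signals of 1019.8, 874.0 and 1024.4 in hs::ΔNTbar-1 larvae, against 1150.0, 946.3 and 1180.1 in hs::control larvae, and the groups overlapped (difference -0.16, limma adjusted p = 0.674). The 3 other probe sets of cutl-20 gave differences of -0.40, -0.52 and -0.66 (limma adjusted p = 0.234, 0.167 and 0.131), each without overlap. All 4 probe sets were lower in hs::ΔNTbar-1 larvae, and these 3 are of the kind whose probes may also match other transcripts.

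For cutl-29 the probe set used differed by 0.12 with overlap, and the other had 69.8, 65.3 and 70.0 in hs::ΔNTbar-1 larvae, against 43.7, 65.2 and 35.7 in hs::control larvae (difference 0.42, limma adjusted p = 0.394). In this other probe set the groups just failed to overlap, with hs::control array 2 almost level with the hs::ΔNTbar-1 arrays. The second probe set of cutl-9 differed by -0.00062 with overlap, against -0.34 for the first. A probe set annotated with the symbol cutl-8 under 2 gene identifiers was not used for that gene. It had 227.4, 218.4 and 229.0 in hs::ΔNTbar-1 larvae, against 193.3, 188.1 and 200.1 in hs::control larvae, with no overlap (difference 0.20, limma adjusted p = 0.454), whereas the groups overlapped in the probe set used (difference 0.43). The second probe set of cutl-24 differed by -0.09, against -0.31 for the first, and both overlapped.

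**Figure D3:**
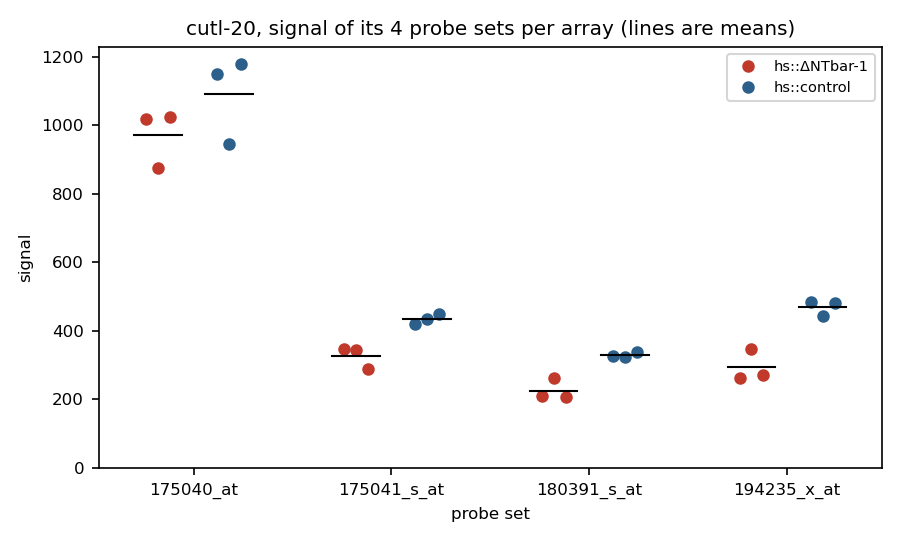
Signal (y axis, linear scale from 0) of the 4 probe sets that name cutl-20 alone, with 1 point per array and the hs::ΔNTbar-1 arrays left of the hs::control arrays. The groups overlap in the first probe set, the one used for the gene, and in the 3 others all hs::ΔNTbar-1 points are below all hs::control points.

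Other genes with a ZP domain and genes of cuticle cross-linking and processing were set beside the cuticlin genes. Of 6 other ZP-domain genes, none passed an adjusted p of 0.05, and their median difference was 0.02. The lowest was fbn-1, a fibrillin-related matrix protein of the epidermis, with 1209.5, 947.6 and 1042.3 in hs::ΔNTbar-1 larvae, against 1670.8, 1739.2 and 1401.2 in hs::control larvae (difference -0.58, limma adjusted p = 0.177). All hs::ΔNTbar-1 arrays of fbn-1 were below all hs::control arrays. The differences of noah-1, noah-2, let-653, dyf-7 and ram-5 lay between -0.14 and 0.36. The highest was noah-2, whose hs::ΔNTbar-1 arrays were all above its hs::control arrays (limma adjusted p = 0.401). Genes without overlap were thus 16.7% of the list in each direction, against 11% higher and 10.5% lower of all genes.

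Cuticle proteins are joined through dityrosine by the dual oxidase BLI-3 and by heme peroxidases. None of 6 genes of this machinery passed an adjusted p of 0.05, and their median difference was -0.41. The peroxidase gene mlt-7 had 424.9, 711.3 and 549.4 in hs::ΔNTbar-1 larvae, against 871.1, 909.7 and 1051.4 in hs::control larvae (difference -0.76, limma adjusted p = 0.196). The gene for the tetraspanin TSP-15, which acts with BLI-3, had 489.5, 542.5 and 558.5 in hs::ΔNTbar-1 larvae, against 685.3, 697.3 and 775.7 in hs::control larvae (difference -0.43, limma adjusted p = 0.195). These 2 genes, the peroxidase gene skpo-1 (difference -0.57) and the oxidase maturation gene doxa-1 (difference -0.38) were lower with no overlap. The gene bli-3 itself was higher with no overlap (difference 0.25, limma adjusted p = 0.418), and hpx-2 overlapped (difference 0.19). Genes without overlap were thus 66.7% lower and 16.7% higher, against 10.5% and 11% of all genes. The signals of skpo-1 (means 16 in hs::ΔNTbar-1 and 30.4 in hs::control larvae) and of hpx-2 were near the bottom of the scale.

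Of 8 genes for the processing of ZP proteins or for the precuticle, the matrix laid down before a new cuticle, none passed an adjusted p of 0.05 and the median difference was -0.05. The lipocalin gene lpr-1 had 714.8, 621.4 and 728.8 in hs::ΔNTbar-1 larvae, against 516.2, 438.1 and 422.8 in hs::control larvae (difference 0.57, limma adjusted p = 0.152). The proprotein convertase gene bli-4 differed by 0.21 and its relative kpc-1 by -0.22. The groups did not overlap for lpr-1 and dex-1 (difference 0.41), both higher in hs::ΔNTbar-1 larvae. Nor did they for let-4 (-0.29) and egg-6 (-0.16), both lower. That is 25% of the 8 genes in each direction, against 11% higher and 10.5% lower of all genes.

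The col genes, which encode the other main structural proteins of the cuticle, are a larger family. Of 128 measured, 6 were higher and 1 lower past an adjusted p of 0.05, and the median difference was 0.13. These calls were 4.69% and 0.781% of the col genes, against 0.443% and 0.286% of all genes. Groups did not overlap for 31 higher (24.2%) and 10 lower (7.81%) col genes, against 11% and 10.5% of all genes. Whether the cuticlin and col families differ was not tested.

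**Figure D4:**
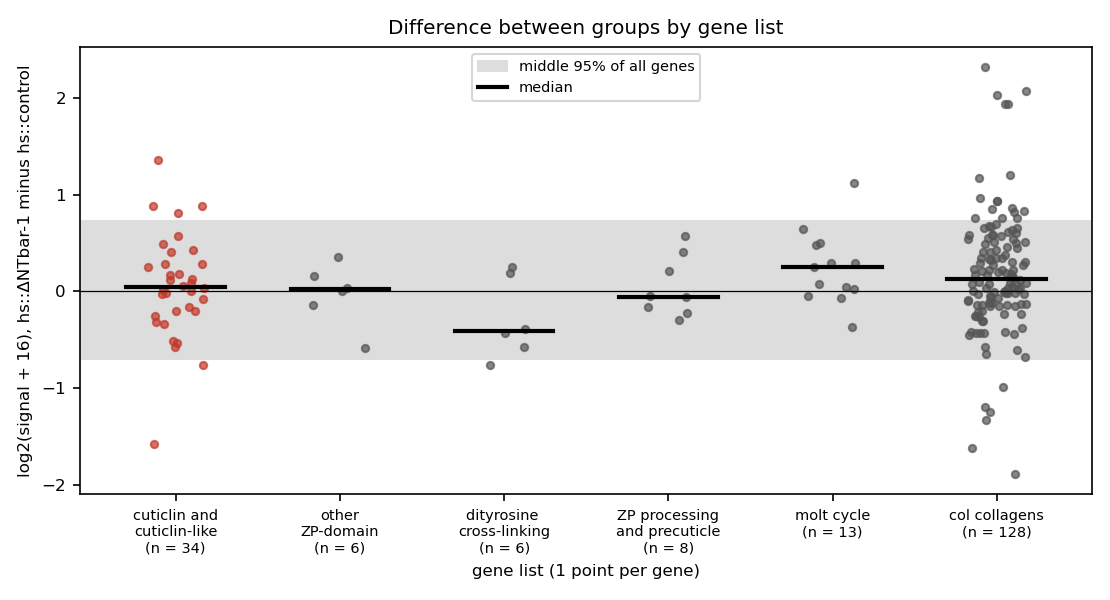
Difference of each gene (y axis, log2(signal + 16), hs::ΔNTbar-1 minus hs::control, 1 point per gene) by list, with the median of each list as a bar and the middle 95% of all genes in grey. The medians are 0.04 for the cuticlin family, -0.41 for the dityrosine genes, 0.25 for the molt cycle genes and 0.13 for the col genes.

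Cuticle genes are switched on and off with each molt, so genes of the molt cycle were read on the same arrays. None of 13 passed an adjusted p of 0.05, and their median difference was 0.25, with 10 positive and 3 negative. At an unadjusted limma p of 0.05, 4 were higher and 0 lower, against 7.25% and 6.69% of all genes. The groups did not overlap for these 4 (30.8% higher and 0% lower), against 11% and 10.5% of all genes. The molting gene mlt-10 had 1414.5, 1039.5 and 890.9 in hs::ΔNTbar-1 larvae, against 640.4, 466.5 and 400.4 in hs::control larvae (difference 1.13, limma adjusted p = 0.130). The other 3 were nas-37 (0.64), which encodes an astacin protease used in shedding the cuticle, ptr-4 (0.50) and qua-1 (0.48), each with no overlap. The summed signal of the 13 genes was 23789 to 29135 in hs::ΔNTbar-1 and 22106 to 24827 in hs::control larvae. The part of molt timing in the differences of the cuticlin genes was not tested. None of the 34 members is on the study's list of genes with their peak at L4, so no comparison by that list could be made within the family.

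Markers of the tissues in the whole-worm samples were read too, and none of them passed an adjusted p of 0.05. The lowest mean signal of a marker over the 6 arrays was 192, for the germ line gene glp-1. The summed signal of 4 hypodermis markers was 9680 to 10240.2 in hs::ΔNTbar-1 and 8853 to 9119 in hs::control larvae. Within that list rol-6 was higher (0.58) and elt-3 lower (-0.56), each with no overlap. The sum of 4 seam markers was 3633 to 3864 in hs::ΔNTbar-1 and 4204 to 4267 in hs::control larvae, with grd-10 lower (-0.29) and elt-6 higher (0.18), each with no overlap. That of 3 pharynx markers was 11287 to 12530.2 in hs::ΔNTbar-1 and 13226.5 to 14948 in hs::control larvae. Of these, tnc-2 was lower (-0.42) with no overlap, and myo-1 and myo-2 (-0.15 each) overlapped. Markers without overlap were 25% of the hypodermis and of the seam list in each direction, and 33.3% of the pharynx list as lower. Of all genes, 11% were higher and 10.5% lower with no overlap. The sums of hypodermis, seam and pharynx did not overlap between the groups, and those of body wall muscle (3 genes), intestine (4), neurons (4) and germ line (3) did. A sum depends most on the probe sets with the highest signals. In the hypodermis and seam lists 2 markers were positive and 2 negative each. The part of these marker differences in those of the cuticlin genes was not tested.

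Processing changed which members passed. When the probe sets below the 40th percentile in mean signal were dropped, 20 members stayed in the fit, cut-4, cutl-6 and cutl-22 were higher and cutl-19 was lower past an adjusted p of 0.05, and cutl-11 was left out as too dim. With a pseudocount of 64, cut-4 (adjusted p = 0.0215) and cutl-27 were higher and cutl-11 was lower. With a pseudocount of 1 cutl-11 alone passed, at -2.54 (limma adjusted p = 0.0315). Neither quantile normalization nor centring each array on its median changed the direction of any of the 11 members without overlap. These scalings turned the sign of 3 and 2 members, whose differences were at most 0.03.

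**Figure D5:**
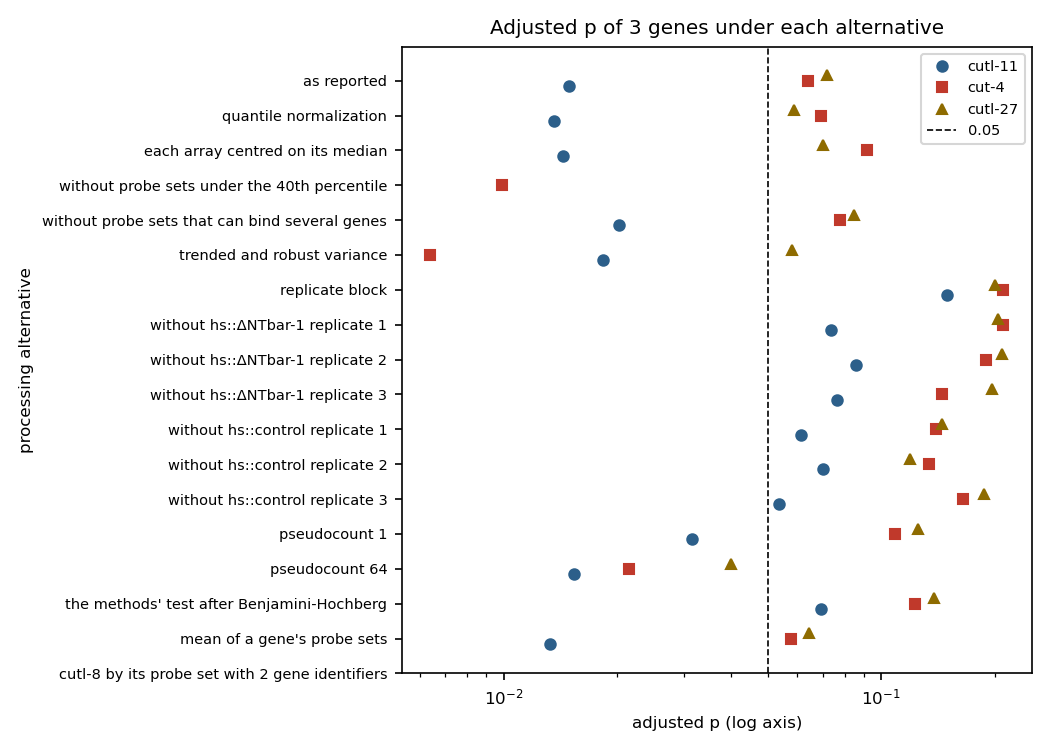
Adjusted p (x axis, log scale) of cutl-11, cut-4 and cutl-27 under each processing alternative (y axis), with a dashed line at 0.05. The points of cutl-11 lie left of the line for the reported fit and 7 alternatives, and right of it for the replicate block, the methods' test and each of the 6 settings without 1 array, and cutl-11 and cutl-27 have no point where dim probe sets were left out.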

How the data were processed

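The file that the authors deposited holds linear signal intensity values of 22625 probe sets on the 6 arrays. MAS 5 and RMA in Partek are named in the methods, and MAS5 and Partek in the submitters' processing notes. RMA would give log2 values, and these are linear with a trimmed mean of 500.2 on every array. They were therefore taken for MAS 5 signal that was scaled per array, which fixes the overall level but leaves dim signals imprecise. Groups and replicate numbers came from the sample labels. Scanner files were not used here, the platform fixes the depth, and 3 arrays per group limit the precision.

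Without the 77 control probe sets of the manufacturer, 22548 were tested. Each gene is given by 1 probe set, that of the highest mean signal among those that name the gene alone. A probe set annotated with the symbol cutl-8 under 2 gene identifiers was left out as not naming 1 gene. Symbols came from the platform annotation and RefSeq (assembly WBcel235), from which the order of neighbouring genes was taken too. Signals were turned into log2(signal + 16) without further normalization or filter and tested two-sided in limma 3.58.1 (lmFit, then eBayes; R version 4.3.3), with no replicate block, with Benjamini-Hochberg adjustment over all probe sets and a threshold of 0.05. The script was tested on simulated data. At an adjusted p of 0.05, limma found 31 of 100 simulated 2-fold changes and 76 of 100 simulated 4-fold changes. It also called 10 of 22348 unchanged probe sets. Alternatives were other normalizations, filters, variance models, pseudocounts (1 and 64), a replicate block, leaving out each array, the analysis of variance of the methods and, for each gene, averaging over its own probe sets.

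The members and the gene lists were chosen with earlier results of these data known. Members were named where limma's adjusted or unadjusted p was at most 0.05, where they met the study's criteria, or where the groups did not overlap with a change of at least 1.5-fold, together with cut-1 to cut-6 and cutl-27. Those nearest 0, those with the widest intervals, the limits of the range of the rest and the neighbouring genes were chosen after their values were seen. In the marker lists, col-10, nhr-73 and elt-5 (an older name of egl-18) had no probe set under those names. Protein and promoter sequences of the members were not analysed here.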

Additional observations from a re-analysis of the deposited data

How the results depend on the processing

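With 3 arrays per group and signals under the array median for 19 members, the 95% interval of 11 members reached beyond 2-fold, and the median standard error was largest for those 19. Calls of members were few under every setting that adjusts p-values. Members called higher numbered 3 without probe sets under the 40th percentile, 1 with a trended and robust variance (cut-4), 2 with a pseudocount of 64 and 6 at an unadjusted p in the methods' test, against 0 as reported. Members called lower numbered 0 with the methods' test after Benjamini-Hochberg adjustment and 5 at its unadjusted p, against 1 as reported. Leaving out each array in turn gave 0 lower.

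The replicate number as a block gave 0 members lower, with cutl-11 at a limma adjusted p of 0.150, and 0 higher and 2 lower probe sets in all. Deviations of same-numbered arrays from their group means correlated at 0.07, -0.02 and 0.06. The hs::ΔNTbar-1 arrays 1 and 3 matched their own number best, and array 2 did not. With correlations of this size the numbers were not taken to pair the arrays.

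Over all probe sets, 92 were called higher and 60 lower (0.674% in all). The counts were 378 and 255 without dim probe sets, 55 and 34 without probe sets of the kinds that may match other transcripts, 451 and 382 with a trended and robust variance, 51 and 38 with a pseudocount of 1, 246 and 143 with 64, 15 and 15 with the methods' test after adjustment and 1583 and 1450 before it. Without 1 array, 13 to 23 were higher and 10 to 22 lower.

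The study's criteria, with the fold on log2(signal + 16), were met by 1 higher and 1 lower member, and with the fold on plain mean signals, an alternative chosen after seeing the data, by 3 higher and 1 lower. Without dim probe sets, and with a pseudocount of 64, they were met by 0 and 0, with a pseudocount of 1 by 3 higher, and without 1 array by 0 to 1 higher. Groups without overlap numbered 3 higher without dim probe sets and 2 lower without those that may match other transcripts, against 6 and 5. The median of the molt cycle genes lay between 0.17 and 0.36 without 1 array, and that of the dityrosine genes between -0.48 and -0.30. No result changed sign past the threshold. A ratio of the plain mean signals, chosen after seeing the data, moved cut-6, cutl-2, cutl-11, cutl-13 and cutl-27 by more than their spread.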
